A study of Arabidopsis thaliana with 3 samples.

Results

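The genes described here are 10 named loci of strigolactone and karrikin signalling in Arabidopsis thaliana: D14, KAI2, DLK2, MAX1, MAX2, SMAX1, SMXL2, SMXL6, SMXL7 and SMXL8. They were chosen by locus identifier, as known genes of these pathways, with earlier results of these data known. All 10 were found among the 27374 genes measured. The material was whole seedlings of the Col-0 accession, wild type, 9 days old, grown on MS plates at 23 °C in long days (16 h light, 8 h dark). There were 3 libraries of 1 group, made from total RNA after removal of ribosomal RNA with a strand-specific kit, and no mutant, hormone or smoke treatment was among them. Whether separate cultures stand behind the libraries is not said in the labels, so every SD measures the spread between these libraries, which may be technical. The p-values rest on that spread too. Those from limma, with their SE and intervals, also draw on the spread of all other genes tested, not on the named pair alone. Because whole plants were extracted, fewer cells of a type and less RNA per cell cannot be told apart.

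Strigolactones are carotenoid-derived hormones that leave the root, recruit symbiotic fungi and restrain the outgrowth of shoot branches. Karrikins are compounds of smoke that promote germination and seedling responses to light. The 2 signals are read by related alpha/beta-hydrolase receptors, D14 for strigolactones and KAI2 for karrikins and an endogenous ligand that has not been identified. Each receptor, once bound, joins the F-box protein MAX2 of an SCF ubiquitin ligase and sends repressors of the SMXL family to degradation. SMAX1 and SMXL2 are the targets of the KAI2 branch, and SMXL6, SMXL7 and SMXL8 those of the D14 branch.

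Leaf markers were high in these seedlings and flower, pollen and seed markers were near 0. CAB1, LHB1B2 and RBCS1A, genes of photosynthesis, had means between 6896 and 14284 FPKM (fragments scaled by transcript length and by library depth), and the root gene PYK10 had 1009 ± 52.9 FPKM (SD, n = 3), while the other root marker, the phosphate transporter gene PHT1;1, had 8.28 ± 1.49. The 3 flower and pollen markers summed to between 0.139 and 0.209 FPKM per library, with VGD1 at 0 in all 3, and the 2 seed markers to between 0.251 and 1.01. Read depth is not stated, and a rough estimate from the steps between low values gave 20.4, 19.6 and 21.1 times 1000000 fragments in libraries 1, 2 and 3. Ratios of low genes between libraries, which need no gene lengths, put library 1 at 1.04 times the depth of library 2 and 0.969 times that of library 3. At these depths the 10 genes rested on an estimated 40.1 fragments per library for DLK2 and up to 1557 for SMAX1, so that counting error alone would give a coefficient of variation of 15.8% and 2.53%.

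Each library gave 1 FPKM or more for all 10 genes, as for 63.2% of the 27164 nuclear genes listed. KAI2 was the highest and DLK2 the lowest, and their means differed 37.8-fold. From the top the order of mean levels was KAI2, D14, MAX2, SMAX1, SMXL7, SMXL6, SMXL2, MAX1, SMXL8 and DLK2. Of the 9 pairs of neighbours in this order, 7 had ranges over the 3 libraries that did not overlap. No such count was made for other sets of genes, so it describes this order and is no trait of the 10. The ranges of MAX2 and SMAX1 overlapped, with MAX2 higher in 1 of 3 libraries, and so did those of SMXL2 and MAX1, with SMXL2 higher in 2 of 3. The median percentile of the 10 among nuclear genes by mean FPKM was 74.3, and the median of the 10 means was 12.9 FPKM against 3.75 FPKM for all nuclear genes.

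**Figure D1:**
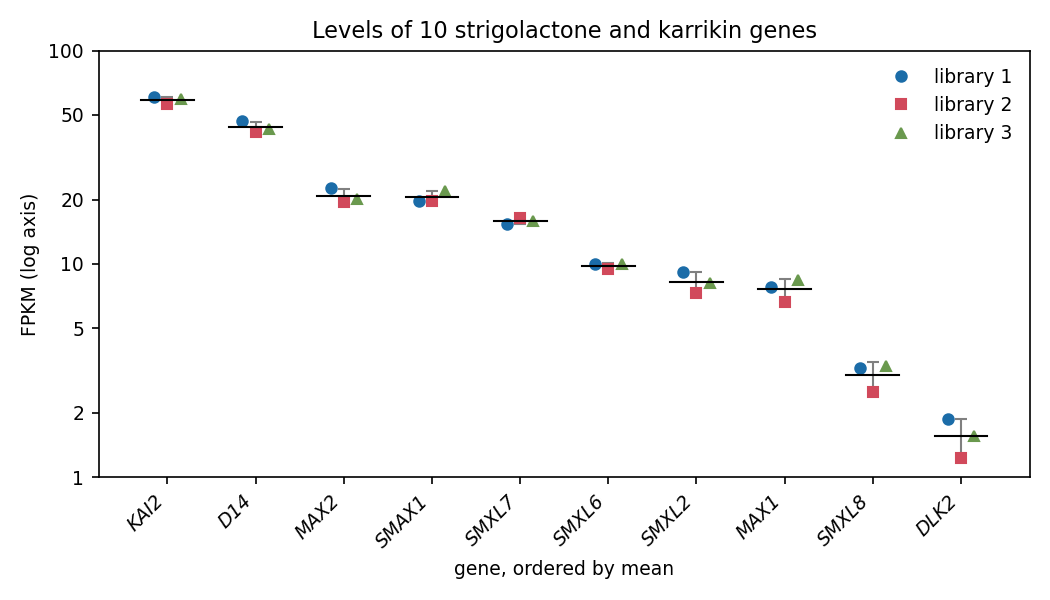
FPKM of the 10 genes in each library on a log axis, ordered by mean. Symbols are libraries, black lines are means and grey bars are the SD (n = 3). KAI2 and D14 stand above 40 FPKM, and SMXL8 and DLK2 below 4, while MAX2 and SMAX1 cannot be separated.

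The receptors of both branches were the most abundant of the 10. KAI2 (AT4G37470; TAIR10.1 chromosome 4, 17616659 to 17618656, minus strand, 2 exons) had 60.5, 56.4 and 59.2 FPKM in libraries 1, 2 and 3, a mean of 58.7 ± 2.13 (SD, n = 3). D14 (AT3G03990; chromosome 3, 1033579 to 1035237, plus strand, 1 exon) had 46.6, 41.6 and 43.1 FPKM, a mean of 43.8 ± 2.59. Every library of KAI2 was above every library of D14. KAI2 exceeded D14 by a ratio of 1.34 ± 0.0399 within libraries. The difference of D14 from KAI2 in log2(FPKM + 1) was -0.42 (SE 0.041, 95% interval -0.51 to -0.32), negative in 3 of 3 libraries, with a limma adjusted p of 5.81e-06. By that rule 91.1% of the 17677 genes tested were below KAI2 and 7.68% above it, so a place below KAI2 is the usual one for a gene of these seedlings. This pair and those tested below were chosen with earlier results of these data known. The percentile among nuclear genes was 92.7 for D14 and 94.6 for KAI2.

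DLK2 (AT3G24420; chromosome 3, 8862813 to 8865239, minus strand, 2 exons), the third hydrolase of the family, whose transcript is known to rise with KAI2 signalling, was the lowest of the 10, at a percentile of 38.7 among nuclear genes. It had 1.88, 1.22 and 1.56 FPKM in libraries 1, 2 and 3, a mean of 1.55 ± 0.326 (SD, n = 3). No library of DLK2 came near a library of KAI2 or D14. KAI2 exceeded it by a ratio of 38.8 ± 6.92 within libraries. In log2(FPKM + 1), which understates folds of low genes, DLK2 differed from KAI2 by -4.56 (SE 0.092, 95% interval -4.77 to -4.34), negative in 3 of 3 libraries, with a limma adjusted p of 4.34e-11. Its coefficient of variation was 21.0%, the largest of the 10 genes. Of the genes of similar level, 69.9% had a smaller SD.

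The hydrolase genes were also compared by sequence. Over the aligned coding bases, D14 and KAI2 were 61.3% identical, DLK2 and KAI2 59.5% and DLK2 and D14 58.2%. The longest identical run was 11 bases for D14 and KAI2 and 13 for DLK2 and D14. None of the 3 transcripts had a second match of 90% identity or more in the genome. How reads were assigned among these genes was not tested.

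MAX2 (AT2G42620; chromosome 2, 17756069 to 17758468, plus strand, 1 exon), the F-box protein that serves both receptors, was less abundant than either of them. It had 22.7, 19.6 and 20.2 FPKM in libraries 1, 2 and 3, a mean of 20.9 ± 1.64 (SD, n = 3). These values lay below the lowest library of D14 in all 3 libraries. The difference of MAX2 from KAI2 in log2(FPKM + 1) was -1.45 (SE 0.048, 95% interval -1.56 to -1.34), negative in 3 of 3 libraries, with a limma adjusted p of 8.35e-10. The summed FPKM of KAI2 and D14 was 4.92 ± 0.182 times that of MAX2.

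**Figure D2:**
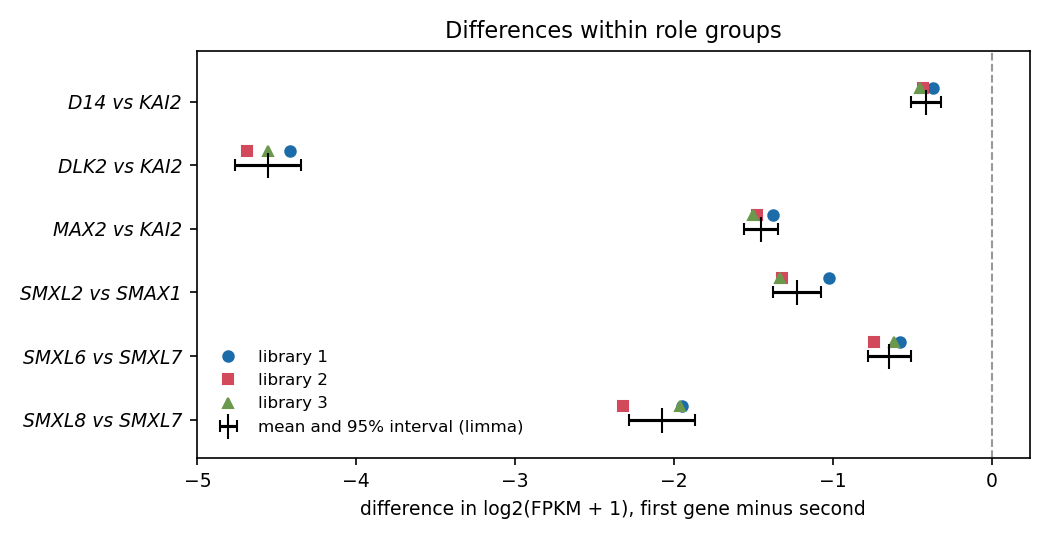
Differences in log2(FPKM + 1) between genes of the same role, and between MAX2 and KAI2. Coloured symbols are the 3 libraries, black marks the mean with its 95% interval from limma. All 6 differences were negative in 3 of 3 libraries, from -0.42 for D14 against KAI2 to -4.56 for DLK2 against KAI2. The pairs were chosen with earlier results of these data known. In each pair the gene with the higher mean is the reference, so the shared sign is not a result of its own.

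In the KAI2 branch the repressor gene SMAX1 was more abundant than its close relative SMXL2. SMAX1 (AT5G57710; chromosome 5, 23384255 to 23388465, plus strand, 4 exons) had 19.8, 19.8 and 22.1 FPKM in libraries 1, 2 and 3, a mean of 20.6 ± 1.33 (SD, n = 3). SMXL2 (AT4G30350; chromosome 4, 14847583 to 14851248, plus strand, 3 exons) had 9.19, 7.34 and 8.17 FPKM, a mean of 8.23 ± 0.924. The groups of values did not overlap, and SMXL2 was lower in 3 of 3 libraries. SMAX1 exceeded SMXL2 by a ratio of 2.52 ± 0.317 and made up 71.4 ± 2.72% of their summed FPKM. The difference of SMXL2 from SMAX1 in log2(FPKM + 1) was -1.23 (SE 0.078, 95% interval -1.38 to -1.07), where 72.4% of tested genes were called below SMAX1 and 22.4% above. The limma adjusted p was 9.44e-56, and this p, the SE and the interval all rest on a spread shared by ratios to SMAX1. The differences in libraries 1, 2 and 3 were -1.03, -1.32 and -1.33 (SD 0.17), so library 1 lies outside that interval. With the variances of both genes the limma adjusted p was 1.86e-06.

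Among the repressor genes of the D14 branch SMXL7 led, SMXL6 followed and SMXL8 was far lower. SMXL7 (AT2G29970; chromosome 2, 12776208 to 12780069, plus strand, 3 exons) had 15.5, 16.5 and 15.8 FPKM in libraries 1, 2 and 3, a mean of 15.9 ± 0.512 (SD, n = 3). SMXL6 (AT1G07200; chromosome 1, 2208477 to 2212718, minus strand, 3 exons) had 10.02, 9.44 and 10.01 FPKM, a mean of 9.82 ± 0.329. SMXL8 (AT2G40130; chromosome 2, 16765709 to 16769279, plus strand, 3 exons) had 3.26, 2.50 and 3.32 FPKM, a mean of 3.03 ± 0.455. The ranges of the 3 genes were separate. In log2(FPKM + 1), SMXL6 differed from SMXL7 by -0.64 (SE 0.061, 95% interval -0.78 to -0.51) and SMXL8 from SMXL7 by -2.08 (SE 0.092, 95% interval -2.28 to -1.87), both negative in 3 of 3 libraries. The limma adjusted p-values were 1.72e-06 and 2.94e-09. By that rule 65.2% of the 17677 genes tested were below SMXL7 and 28.8% above it. For SMXL8 against SMXL7 the differences in libraries 1, 2 and 3 were -1.95, -2.32 and -1.96 (SD 0.21), so library 2 lies outside that interval. With the variances of both genes the limma adjusted p of this pair was 2.44e-07. SMXL7, SMXL6 and SMXL8 made up 55.4 ± 2.28%, 34.1 ± 0.832% and 10.5 ± 1.48% of the summed FPKM of these 3 genes.

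Summed over their genes, the repressors of the 2 branches differed by less than the spread between libraries. SMAX1 and SMXL2 added up to 29.0, 27.1 and 30.3 FPKM in libraries 1, 2 and 3, and SMXL6, SMXL7 and SMXL8 to 28.7, 28.4 and 29.2. The first sum was the larger in libraries 1 and 3 and the smaller in library 2. Their ratio was 1.0003 ± 0.0418 (SD, n = 3), between 0.955 and 1.04. The log2 ratio of -0.000359 ± 0.061 gave p = 1 in an exact two-sided sign-flip permutation test, in which 3 libraries cannot go below 0.25. Per gene rather than summed, the mean log2(FPKM + 1) of SMAX1 and SMXL2 was 0.64 above that of the other 3 genes, since the same sum is spread over 2 and over 3 genes. KAI2 had 2.04 ± 0.0724 times the FPKM of its targets, and D14 had 1.52 ± 0.0880 times that of its own.

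**Figure D3:**
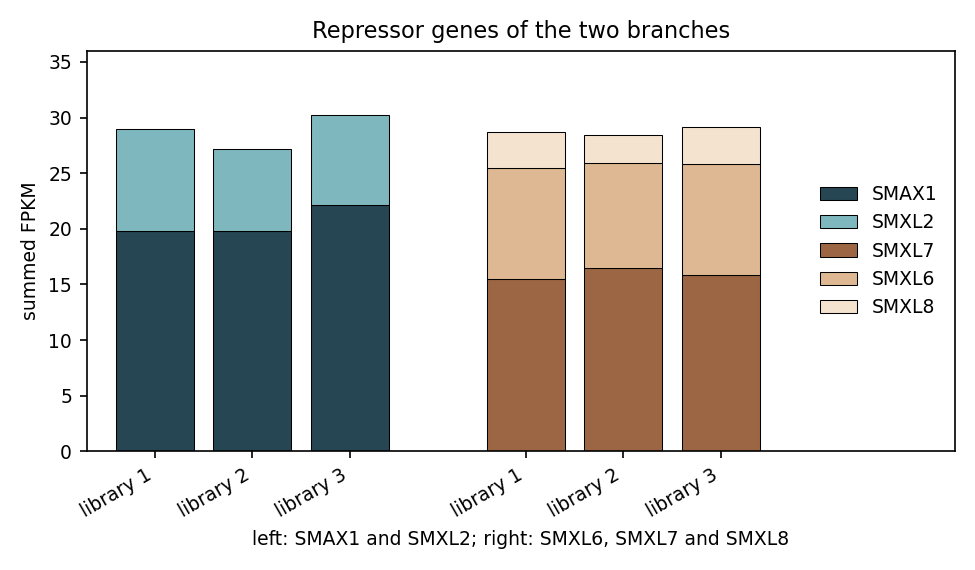
Summed FPKM of the repressor genes in each library, stacked by gene, for SMAX1 and SMXL2 on the left and SMXL6, SMXL7 and SMXL8 on the right. The stacks lie between 27.1 and 30.3 on the left and between 28.4 and 29.2 on the right, with SMAX1 and SMXL7 as the largest parts.

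The closest relatives among the repressors share more sequence than the hydrolases do, in short identical runs. The coding sequences of SMXL6 and SMXL7 were 74.7% identical and those of SMXL2 and SMAX1 69.8%, against 64.5% for SMXL8 and SMXL7 and 61.1% for SMXL7 and SMAX1. The longest stretches that each of the 2 closest pairs has in common are shown as examples of identical letters, on the coding strand of TAIR10.1 (genome sequence from RefSeq). They were searched for anywhere in the coding sequences, and whether they lie at matching positions or were conserved was not tested. The first lies at chr4:14848448-14848467 in SMXL2 and chr5:23385172-23385191 in SMAX1, and the second at chr1:2210108-2210127 (minus strand) in SMXL6 and chr2:12778651-12778670 in SMXL7.
SMXL2 and SMAX1: aaagttgagcttgaacagct
SMXL6 and SMXL7: aaagatttcaagtctctcag
Both runs are 20 bases long. A second match of 90% identity or more was found only for SMXL6 among the 10 genes. It was 118 bases long, 91.5% identical and in no annotated gene, and covered 3.03% of the transcript.

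SMXL6 protein is known to bind the motif ATAACAA and to repress SMXL6, SMXL7 and SMXL8. The 250 bases before the annotated start of each of the 10 genes were searched for it on both strands. SMXL7, the most abundant repressor gene of the D14 branch, held 2 matches, which began 26 and 16 bases before its start. The other 9 genes held none in this window. One match or more occurred in 11.6% of 27444 protein-coding promoters of the same length, and 2 or more in 0.871%. A match in 1 of 10 genes is near the first share. The motif was chosen after the data were seen, so the second share is no test of SMXL7. The SMXL7 window is printed with the matches in capitals (TAIR10.1 chr2:12775958-12776207, plus strand).
SMXL7: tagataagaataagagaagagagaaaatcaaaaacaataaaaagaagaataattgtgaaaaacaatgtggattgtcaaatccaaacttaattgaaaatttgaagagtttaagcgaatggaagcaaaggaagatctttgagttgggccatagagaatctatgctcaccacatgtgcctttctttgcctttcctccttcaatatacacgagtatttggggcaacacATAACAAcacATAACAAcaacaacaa
A match is a description of these letters and not a site, and its absence from a window says nothing about the factor.

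Of the 10 genes, 3 had 2 transcript forms in the files, and in each of them 1 form carried most of the value. SMXL6 form 2, which spans the whole gene, had 8.50, 8.81 and 8.44 FPKM in libraries 1, 2 and 3. SMXL6 form 1 had 1.51, 0.627 and 1.56 FPKM, or 12.5 ± 5.04% of the gene's FPKM. Form 1 was thus lowest in library 2, the library in which form 2 was highest. In the RefSeq annotation form 1 starts inside the first intron of form 2, and its coding length is 1269 bases against 2940. Form 1 lacks what the first 2 exons of form 2 encode and also the first part of what exon 3 encodes. Its coding sequence starts at base 2210301 (minus strand), whereas exon 3 of form 2 codes from 2210523. The annotation that was used for the values is not given in the sources used here and may place these ends differently.

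SMXL8 had nearly all of its value in form 1. SMXL8 form 1 had 3.26, 2.49 and 3.32 FPKM in libraries 1, 2 and 3, whereas form 2 was listed at 0, 0.00916 and 5.8e-05. In the RefSeq annotation form 2 starts later and ends earlier in the untranslated ends, and its coding sequence differs only at the second intron. That intron is 123 bases long in form 1 and 114 in form 2, because form 2 keeps 4 bases more at its start and 5 more at its end. The region is printed since these bases are the only coding difference, with exons in capitals and the intron in lower case (TAIR10.1 chr2:16767590-16767742, plus strand).
SMXL8 form 1: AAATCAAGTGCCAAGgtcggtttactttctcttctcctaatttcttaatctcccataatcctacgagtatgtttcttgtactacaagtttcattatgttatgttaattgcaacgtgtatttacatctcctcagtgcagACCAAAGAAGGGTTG
SMXL8 form 2: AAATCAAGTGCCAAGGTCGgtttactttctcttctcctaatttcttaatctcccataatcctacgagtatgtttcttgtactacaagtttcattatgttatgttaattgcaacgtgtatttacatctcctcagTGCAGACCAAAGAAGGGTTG
Both introns begin with GT and end with AG, and the 9 bases that form 2 keeps lengthen its coding sequence from 2724 to 2733. In SMXL6 the same intron ends 5 bases earlier in form 1 than in form 2, which leaves 78 and 83 bases, but lies before the coding start of form 1. The forms share most of their exons, and how reads were divided between them was not tested.

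**Figure D4:**
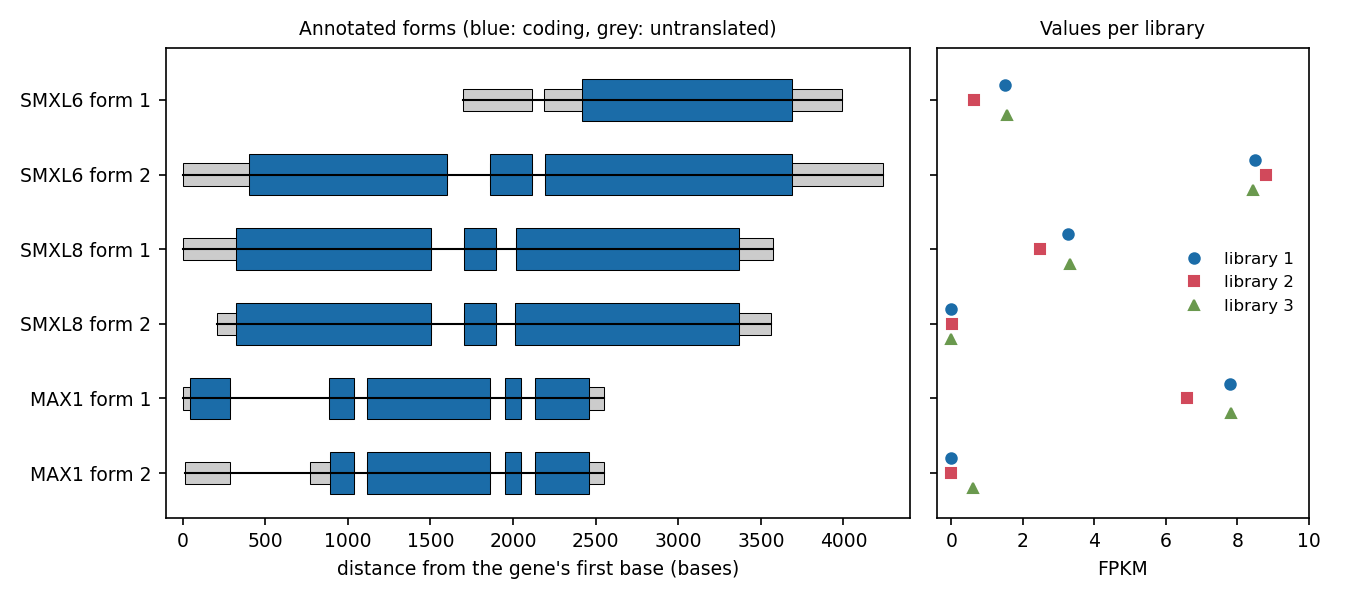
Left, the annotated forms of SMXL6, SMXL8 and MAX1 by distance from the gene's first base (coding parts blue, untranslated parts grey, introns as lines). Right, the FPKM of each form in the 3 libraries. SMXL6 form 2, SMXL8 form 1 and MAX1 form 1 carry most of each gene's value, and SMXL6 form 1 lies between 0.627 and 1.56.

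MAX1 (AT2G26170, CYP711A1 in the gene table; chromosome 2, 11140809 to 11143360, plus strand, 5 exons), the cytochrome P450 that oxidises the strigolactone precursor carlactone, was the only synthesis gene among the 10. It had 7.81, 6.61 and 8.42 FPKM in libraries 1, 2 and 3, a mean of 7.61 ± 0.922 (SD, n = 3). Form 1 had 7.81, 6.61 and 7.82 FPKM, and form 2 was listed at 0, 0 and 0.595. Libraries 1 and 3 were nearly level in form 1, and most of the gap between them came from form 2. Form 2 differs by an earlier end of the first intron, which leaves 488 bases in place of 603, and by a coding length of 1320 bases against 1569. The last 71 bases of MAX1 overlap AT2G26180, a gene on the opposite strand with 2.67 to 2.93 FPKM, and 156 bases at the start of SMXL8 overlap an annotated antisense long non-coding RNA. Whether the values were counted by strand is not given in the sources used here. These overlaps are 4.17% and 4.80% of the respective transcripts.

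The other genes of the pathways split by role. Of the 25 further genes, 16 reached 1 FPKM in each library, against the 63.2% of all nuclear genes given above, and a median of 3.17 FPKM. The SCF partners of MAX2 were abundant: ASK1 (SKP1 in the gene table) had 151 ± 10.8 FPKM (SD, n = 3), the scaffold CUL1 52.1 ± 0.285 and the RING protein RBX1 51.4 ± 2.82. All 3 were above MAX2 in every library. The 5 TOPLESS co-repressors, which SMXL proteins recruit, all passed 1 FPKM, from TPR3 at 5.60 ± 0.403 to TPL at 31.8 ± 0.963.

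The SMXL genes outside both branches, which act in phloem development, were lower than most of those within. SMXL5 had 5.54 ± 0.0881 FPKM (SD, n = 3), SMXL3 5.20 ± 0.427 and SMXL4 1.60 ± 0.176. Every library of SMXL5 and SMXL3 was below every library of SMXL2, SMXL6, SMXL7 and SMAX1 and above every library of SMXL8. SMXL4 was below SMXL8 and overlapped DLK2 in range.

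The genes of strigolactone synthesis and catabolism other than MAX1 ranged in mean from near 0 to 9.81 FPKM. Of the 7 synthesis and catabolism genes, 3 passed 1 FPKM in every library and 4 did not. The carotenoid cleavage enzymes that act before MAX1 were at the bottom: MAX3 (CCD7 in the table) was listed at 0.0585, 0.0608 and 0 FPKM in libraries 1, 2 and 3, and MAX4 (CCD8) at 0.299, 0.198 and 0.395. D27, the isomerase that starts the pathway, had 2.94 ± 0.510 FPKM (SD, n = 3), and LBO (LBO1), which acts after MAX1, 3.17 ± 0.356. The highest of the list was AT4G36470, annotated as a methyltransferase, at 9.81 ± 1.02. MAX1 was thus above D27, LBO, MAX3 and MAX4 in every library, and below AT4G36470 in every library.

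Genes known to respond to these pathways were mostly near or below 1 FPKM. Of the 7, 2 passed 1 FPKM in every library. KUF1, an F-box gene induced by karrikins, was highest with 3.48, 3.82 and 4.44 FPKM in libraries 1, 2 and 3, a mean of 3.91 ± 0.490 (SD, n = 3), and BBX20 (BZS1 in the table), another karrikin marker, had 2.77, 1.69 and 2.56 FPKM. BBX20, like DLK2, was lowest in library 2 and highest in library 1, whereas KUF1 was lowest in library 1 and highest in library 3. BRC1, the branching inhibitor downstream of D14, was listed at 0.0898, 0.374 and 0.0435 FPKM, and TCP1 at 0 in all 3 libraries.

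**Figure D5:**
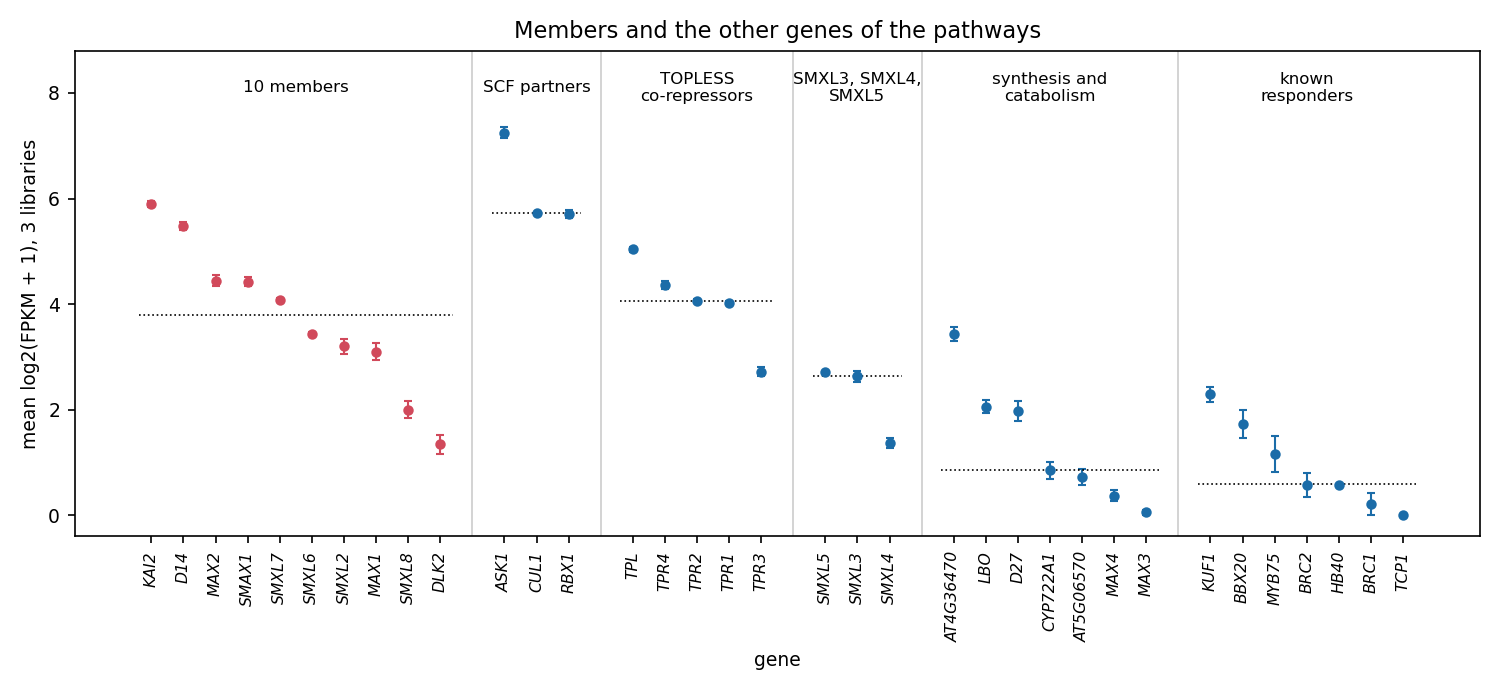
Mean log2(FPKM + 1) over 3 libraries for the 10 genes (red) and 25 other genes of the pathways (blue), by role. Bars are the SD and dotted lines the median FPKM of each group on the same scale. ASK1 lies highest and TCP1 at 0, and most synthesis and responding genes lie below the receptors, MAX2 and the repressors.

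Among all these genes, the nearest in level to a member was found by the largest difference in log2(FPKM + 1) over the 3 libraries. It was CUL1 for KAI2 (0.20), RBX1 for D14 (0.28), TPR4 (WSIP2 in the table) for MAX2 (0.19) and SMAX1 (0.11), and TPR2 for SMXL7 (0.087). It was AT4G36470 for SMXL6 (0.19), D27 for SMXL8 (0.11) and SMXL4 for DLK2 (0.17), and SMXL2 and MAX1 were nearest to each other (0.21).

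None of the 10 genes differed between libraries by more than 1 in log2(FPKM + 1), where 0.651% of the 17678 nuclear genes whose mean reached 1 FPKM did. None differed by more than 0.5 either, against 4.63%. The 0.5 threshold was not tried with another pseudocount. DLK2 had the widest range in log2(FPKM + 1), 0.37, and SMXL6 the narrowest, 0.077. The pseudocount narrows the range of low genes. In FPKM itself, without it, the highest library of DLK2 was 1.53 times the lowest. The coefficient of variation was 3.22% for SMXL7 and 3.35% for SMXL6, where the estimated counting error gives 2.98% and 3.68%. For D14 and MAX2 it was 5.92% and 7.87%, against 2.78% and 3.28% from counting.

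Library 2 held the lowest value of 8 of the 10 genes, where 44.2% of the nuclear genes whose mean reached 1 FPKM were lowest in that library. The exceptions were SMAX1 and SMXL7, both lowest in library 1, and SMXL7 was highest in library 2. Of the other pathway genes whose mean reached 1 FPKM, 11 of 17 were also lowest in library 2. With each library rescaled to the same sum, the count among the 10 genes was again 8, against 40.5% of the nuclear genes. The median deviation of the members in library 2 from their mean over libraries was -0.076 in log2(FPKM + 1), and that of all the nuclear genes whose mean reached 1 FPKM -0.021. Library 2 also had the smallest estimated depth, whose part in this was not tested.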

How the data were processed

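RNA of 3 wild-type seedling libraries was analysed as 1 group. The deposited values are FPKM per transcript made by the authors: the file headers give no unit, and it was inferred from the values (not whole, with sums of 2064646, 2000114 and 1957870) and from Cufflinks 2.1.1, which the submitters' processing notes name beside TopHat2 2.0.9 and the build TAIR10. The sources used here do not give the annotation or filters. Of 36172 transcripts, 35337 carry a locus identifier and were summed per locus. Genes were compared within libraries with limma 3.58.1 in R 4.3.3 (log2 ratios to a reference gene, pseudocount 1, intercept model, empirical Bayes with trend) over all nuclear genes whose mean reached 1 FPKM, with Benjamini-Hochberg adjustment over all of them and a threshold of 0.05. On simulated data the fit called some of the genes simulated as equal to KAI2. How often the fit makes such calls in these libraries was not tested. Since ratios to a reference gene share its noise, the size of a p-value says little beyond the direction. The direction itself rests on setting the FPKM of different genes side by side. An error in the length or annotation used for 1 gene would recur in all 3 libraries. No SE, p-value or left-out library would show it, and its part here was not tested. Depth was estimated from low genes with 1 transcript, of which 19.1% to 20.5% lay within 2% of the value of 1 fragment, too few to recover whole reads for a count test. Positions, gene structures and sequences are from RefSeq's TAIR10.1, which differs in name from the authors' build.

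The members, the gene lists and the pairs were chosen with earlier results of these data known. Named genes were all members with their forms, from the 25 other pathway genes the highest and lowest of each role, all of roles with 3 or fewer genes and all SMXL genes, and for each member the gene nearest in level. LBO, MAX4, BBX20 and BRC1 were named beyond this rule, after their values were seen. The share lowest in library 2 and the promoter motif were also chosen after seeing the data. Alternatives were another pseudocount, no filter on low values, the variances of both genes, the highest transcript only, libraries rescaled to one sum, and leaving out each library.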

Additional observations from a re-analysis of the deposited data

How the results depend on the processing

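The 6 differences between genes kept their sign and stayed under an adjusted p of 0.05 in all 47 alternative fits, with a largest limma adjusted p of 0.000192. DLK2 had no value after rescaling of the libraries, because its mean then fell under 1 FPKM. The smallest and largest differences in log2(FPKM + 1) were -0.44 and -0.40 for D14, -5.17 and -4.49 for DLK2 and -1.49 and -1.41 for MAX2, each against KAI2. They were -1.33 and -1.14 for SMXL2 against SMAX1, -0.82 and -0.60 for SMXL6 against SMXL7, and -2.37 and -1.84 for SMXL8 against SMXL7. The log2 ratio of SMAX1 and SMXL2 to SMXL6, SMXL7 and SMXL8, near 0, changed sign to 0.063 with the highest transcript of each gene only, which leaves out SMXL6 form 1, and lay between -0.027 and 0.032 without each library in turn, positive without replicate 2. As a mean of log2(FPKM + 1) per gene, another quantity, it was 0.64. No gene differed by more than 1 between libraries under any alternative, and 10 of 10 had at least 1 FPKM in every library except after rescaling (9, where 56.7% of nuclear genes did). At least 5 FPKM was reached by 8, and by 43.3% of nuclear genes. With the highest transcript only, SMXL6 had 8.59 FPKM and overlapped SMXL2, which left 6 neighbour pairs apart, and library 2 was lowest in 7 genes. These 2 counts were tried under alternatives chosen after seeing the data. No paired analysis was possible because 1 group leaves no groups to pair by replicate number. Genes were compared within libraries, except in the fits with the variances of both genes. Those take each gene by itself, and the largest adjusted p above, for D14 against KAI2, is from them. DLK2 and SMXL8, with about 40.1 and 188 estimated fragments, are limited most by depth.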
